A study of Mus musculus with 12 samples.

Results

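Neutrophil secondary granule and alarmin genes were followed in sorted mouse blood monocytes. The 10 genes were taken by name from a list of specific and gelatinase granule proteins and their cytosolic alarmin companions, and all 10 of 10 are among the 23279 named genes of the array. Each is read by 1 feature named by its Entrez number, such as 12796_at for Camp, 20201_at for S100a8 and 20202_at for S100a9. The RNA came from inflammatory monocytes of the blood of mice aged 6 to 8 weeks, cells with CD11b, CD115 and a high level of Ly6C by the sort that the source names give; a treatment text in the labels speaks of CD4 T cells instead. Of the 12 arrays, 6 carry the genotype label TRIM33 and 6 the label WT. All 12 share the strain label C57BL/6 LyzCre, which names a Cre recombinase expressed from a lysozyme gene in monocytes, macrophages and neutrophils; the labels do not say whether WT mice carry it, and name neither the allele behind TRIM33 nor a treatment. The titles call 2 arrays of each genotype a mix (TRIM33 replicates 2 and 3, WT replicates 5 and 6), without a statement of what was mixed. Separate animals are not stated either, so a p-value here measures array-to-array spread, which may be technical.

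Neutrophils store their proteins in granules that form in a fixed order as the cell matures. Primary granules are filled in promyelocytes, specific (secondary) granules in myelocytes and gelatinase granules later, so the transcripts of each granule class mark a stage of the lineage. C/EBP epsilon is the transcription factor required for the specific granule genes. S100A8 and S100A9 pair as calprotectin, a cytosolic protein of neutrophils and of Ly6C-high monocytes that is released as an alarm signal.

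The values are log2 expression values, 1 per gene, made by the authors with RMA, which equalises the distributions of the arrays. Array medians lay between 4.16 and 4.25. No detection call comes with the values, so a member that stayed near or below those medians is described by its values alone. Trim33 read 6.06 to 6.23 on the TRIM33 arrays and 6.81 to 7.05 on the WT arrays, so the genotype labels and the targeted gene ran the same way on all 12. Ly6c2, a gene of the sorted antigen, read between 12.20 and 12.55 throughout. Clustering of the features outside all lists used here placed the arrays in 2 sets of 6, each with 3 TRIM33 and 3 WT arrays. The female-specific RNA Xist read 9.01 or more in the Xist set and 3.64 or less in the Y set. The Y-linked Kdm5d ran the other way, with at most 3.27 and at least 5.73. All 4 mixes lay in the Y set. Among the Y-set arrays TRIM33 replicate 2 stood apart for several members. Y-set genotype differences that rest on it are given with and without it. Mean gaps between the sets include it and are given beside the values of the other Y-set arrays. The sets were read from the data, so values are compared between them as a description, with no test.

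Across the array sets the members parted into those that differed widely and those that did not. Camp, Ngp, Ltf, S100a8 and S100a9 were higher on all 6 arrays of the Xist set than on any array of the Y set, which made 5 of 10 members against a background of 7.45% of all genes. The mean gap was at least 1 log2 unit in that direction for 5 of 10 (Camp, Ngp, Lcn2, S100a8 and S100a9; background 2.8%). Lcn2 was higher on average with overlap, while Mmp8, Mmp9, Chil1 and Retnlg overlapped. The overlap of Lcn2 rested on TRIM33 replicate 2, at 10.03. Every other Y-set array read at most 7.29, below the lowest Xist-set value of 7.81. RNA of bulk samples was measured, so fewer cells of a type and less RNA per cell cannot be told apart.

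Camp encodes the precursor of the cathelicidin antimicrobial peptide. Its lowest, median and highest values were 5.85, 6.75 and 7.57 in the Xist set and 2.80, 3.14 and 3.53 in the Y set, a difference of 3.59 log2 units between the means (6.72 ± 0.631 and 3.13 ± 0.260; SD, n = 6). This was the widest gap of any member, and no array lay between 3.53 and 5.85. All 6 Y-set values of Camp were below the median of their array. Ngp encodes neutrophilic granule protein, a cystatin-like protein related to the cathelicidins. Its Xist-set values ran from 5.27 over a median of 6.50 to 7.22 and its Y-set values from 4.13 over 4.28 to 4.72, a difference of 2.14. Ltf encodes lactoferrin, the iron-binding protein of specific granules. It read 3.85 to 5.22 (median 4.18) against 3.23 to 3.78 (median 3.53), so its sets parted by a mean of only 0.86 and nearly met. All 6 Y-set values of Ltf, too, were below the median of their array, where RMA compresses differences. Camp, Ngp and Ltf all lie on chromosome 9, with 8 protein-coding genes between Camp and Ngp and 20 between Ngp and Ltf in the RefSeq gene table of GRCm38.p6. Mmp8 is on chromosome 9 as well, Lcn2 and Mmp9 are on chromosome 2, Chil1 on chromosome 1 and Retnlg on chromosome 16.

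The promoter stretches of members with and without the wide gap are shown because C/EBP factors are known to drive this gene class. Each is the 250 bases before the annotated start, 5′ to 3′ on the gene's strand, from RefSeq for GRCm38.p6: chr9:109849457-109849706 (minus strand) for Camp, chr9:110419558-110419807 (plus) for Ngp, chr3:90668821-90669070 (plus) for S100a8, chr3:90695722-90695971 (minus) for S100a9 and chr9:7558179-7558428 (plus) for Mmp8. Capitals mark TTNNGNAA, a core of the C/EBP consensus, on either strand, and TATAAA.
Camp: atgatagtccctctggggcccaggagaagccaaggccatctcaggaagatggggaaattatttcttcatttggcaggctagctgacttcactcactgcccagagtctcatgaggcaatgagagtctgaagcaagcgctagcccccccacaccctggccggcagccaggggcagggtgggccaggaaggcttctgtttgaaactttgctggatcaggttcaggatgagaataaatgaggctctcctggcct
Ngp: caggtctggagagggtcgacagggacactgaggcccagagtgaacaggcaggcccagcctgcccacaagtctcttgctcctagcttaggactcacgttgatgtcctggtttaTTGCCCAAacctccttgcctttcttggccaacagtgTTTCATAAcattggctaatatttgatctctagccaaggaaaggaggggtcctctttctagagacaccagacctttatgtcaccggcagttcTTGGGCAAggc
S100a8: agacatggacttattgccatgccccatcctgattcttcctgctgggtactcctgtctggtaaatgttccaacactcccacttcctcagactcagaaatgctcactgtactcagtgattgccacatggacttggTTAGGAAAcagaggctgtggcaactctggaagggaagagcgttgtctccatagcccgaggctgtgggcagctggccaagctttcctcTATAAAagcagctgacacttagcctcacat
S100a9: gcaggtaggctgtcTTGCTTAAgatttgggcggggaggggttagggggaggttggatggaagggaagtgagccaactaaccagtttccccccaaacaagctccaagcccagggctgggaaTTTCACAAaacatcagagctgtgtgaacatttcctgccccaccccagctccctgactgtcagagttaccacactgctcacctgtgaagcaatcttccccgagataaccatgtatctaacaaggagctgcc
Mmp8: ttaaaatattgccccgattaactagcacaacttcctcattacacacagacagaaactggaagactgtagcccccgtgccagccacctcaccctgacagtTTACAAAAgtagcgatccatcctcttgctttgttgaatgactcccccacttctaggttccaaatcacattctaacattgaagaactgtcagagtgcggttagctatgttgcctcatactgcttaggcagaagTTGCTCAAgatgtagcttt

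The promoter table held 9 of the 10 members, all but Mmp9. TTNNGNAA was found in 8 of these 9 stretches, against 36.8% of the 32851 stretches of that length in the table, and GAGGAA, a core of the site of the ETS factor PU.1, in 4 of 9 against 23.3%. Ngp held 3 C/EBP core matches, Ltf, Mmp8 and S100a9 held 2 each, and Lcn2, Chil1, Retnlg and S100a8 held 1. Camp had none in this window. TATAAA was found in S100a8 alone (12.4% of all stretches), 30 bases before the start, and TGANTCA, the AP-1 site, in 0 of the 9 (6.7%). All motifs were searched on both strands. Mmp8, which did not part the sets, held as many C/EBP core matches as S100a9, which did. A match is a run of letters and says nothing of binding in these cells.

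Both alarmins parted the sets. S100a8 ran from 10.55 to 11.33 (median 10.85) on Xist-set arrays and from 6.88 to 10.33 (median 7.57) on Y-set arrays. S100a9 ran from 10.92 to 11.66 (median 11.20) and from 7.52 to 10.57 (median 7.99). Within the Y set 1 array, TRIM33 replicate 2, lay apart from the other 5 for both genes. Those 5 read 6.88 to 8.19 for S100a8 and 7.52 to 8.78 for S100a9. With TRIM33 replicate 2 included, the mean differences were 2.87 and 2.84 log2 units, 7.31-fold and 7.18-fold. The 2 genes are neighbours on chromosome 3, the chromosome of Trim33, with 0 protein-coding genes between them, and their gaps were alike. Of the 12 other S100 genes measured, 0 were higher on every Xist-set array. The calcium-binding S100a4 and S100a6 were the 2 that were lower there without overlap, with differences of -0.15 and -0.14, and S100a10 differed by 0.30 with overlap.

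**Figure D1:**
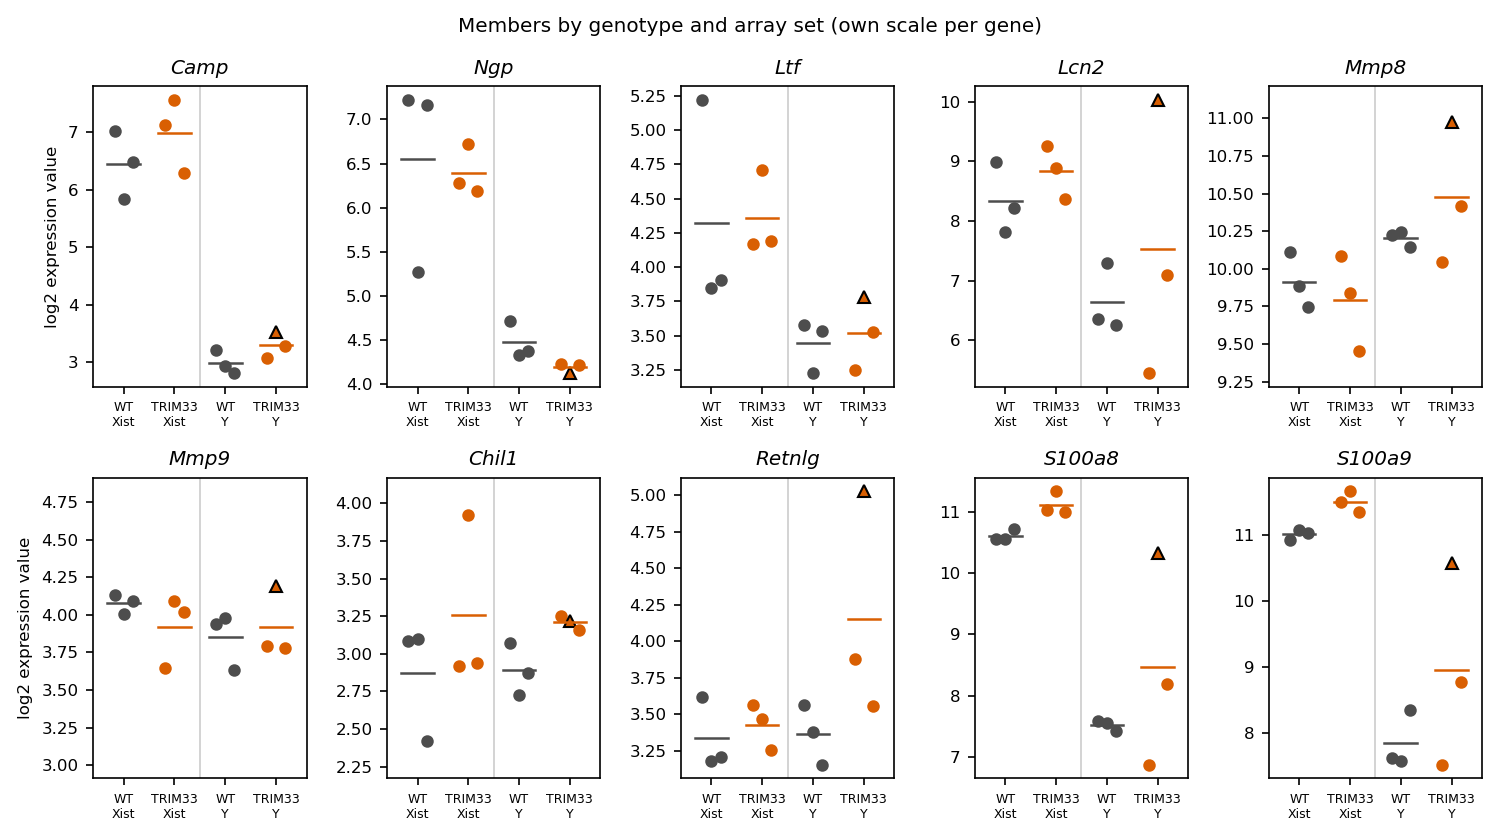
Log2 expression value of each member (1 panel per gene, each with its own vertical scale) on 12 arrays, by genotype within the Xist set and the Y set; each point is 1 array, the short line is the mean of 3 arrays and the outlined triangle is TRIM33 replicate 2. Camp, Ngp, Ltf, S100a8 and S100a9 lie higher on all 6 arrays of the Xist set, and the triangle lies far above the other Y-set arrays for Lcn2, Retnlg, S100a8 and S100a9.

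Lcn2 encodes lipocalin 2, which binds bacterial siderophores and is stored in specific granules but also induced in inflamed tissue. Xist-set arrays read 7.81 to 9.25 (median 8.63) and Y-set arrays 5.45 to 10.03 (median 6.73). The Y set thus held both the lowest and the highest array. The highest was TRIM33 replicate 2, and the other Y-set arrays read 5.45 to 7.29. Mmp8, neutrophil collagenase, ran slightly the other way: 9.46 to 10.11 (median 9.86) on Xist-set arrays and 10.04 to 10.97 (median 10.23) on Y-set arrays, a difference of -0.49. Its values were within 1.52 log2 units over all 12 arrays, where those of Camp spanned 4.77.

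The remaining members stayed near or below the array medians, but for Retnlg on TRIM33 replicate 2. Mmp9, gelatinase B of the gelatinase granules, read 3.63 to 4.19 over all 12 arrays, and the sets differed by 0.11. Chil1, a chitinase-like protein of specific granules, read 2.42 to 3.92 with a difference of 0.02. Retnlg, a resistin-like protein secreted by neutrophils, read 3.16 to 5.03 and was below 3.9 on every array but TRIM33 replicate 2. The measured gaps of specific granule genes between the sets were therefore unlike. Camp and Ngp differed by more than 2 log2 units, Ltf by less than 1, and Mmp8 and Chil1 by under 0.5 in size. Lcn2 differed by 1.51 with TRIM33 replicate 2 included. Without that array the Y-set median of Lcn2 was 6.36, against an Xist-set median of 8.63. For Ngp these medians were 4.33 and 6.50, so the smaller mean gap of Lcn2 rested on that array. Chil1 and Ltf lay mostly near or below the array medians, where a small gap does not show that a gene did not move.

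Most genes of the earlier granule stage parted the sets too. Of 8 primary granule genes, 6 were higher on all Xist-set arrays than on all Y-set arrays, and the median difference of the list was 4.12. Myeloperoxidase (Mpo) differed by 6.34, with at most 5.15 on Y-set arrays and at least 10.91 on the others, neutrophil elastase (Elane) by 6.05 and cathepsin G (Ctsg) by 5.45. Each of these 3 differed more than any member. The later genes ran both ways; over all genes 7.45% were higher and 6.59% lower without overlap. Of 17 other late granule and secreted genes, 2 were higher without overlap, ficolin B (Fcnb, by 2.63) and the protease inhibitor Slpi (by 0.70), and 4 were lower, among them Ceacam1 (-0.91) and Cd177 (-0.74). Of the 13 mature neutrophil genes measured of 16 listed, 0 were higher and 2 were lower without overlap: the receptor genes Csf3r, which differed by -1.02, and Fpr2, by -1.35. Among 12 regulators of granule genes, Cebpe was the 1 that was higher without overlap, at 6.71 to 7.27 against 5.09 to 6.15, and Spi1, the gene of PU.1, the 1 that was lower, at 10.84 to 11.18 against 11.18 to 11.44 (difference -0.35), while Cebpa (-0.63) and Gfi1 (-0.13) overlapped.

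**Figure D2:**
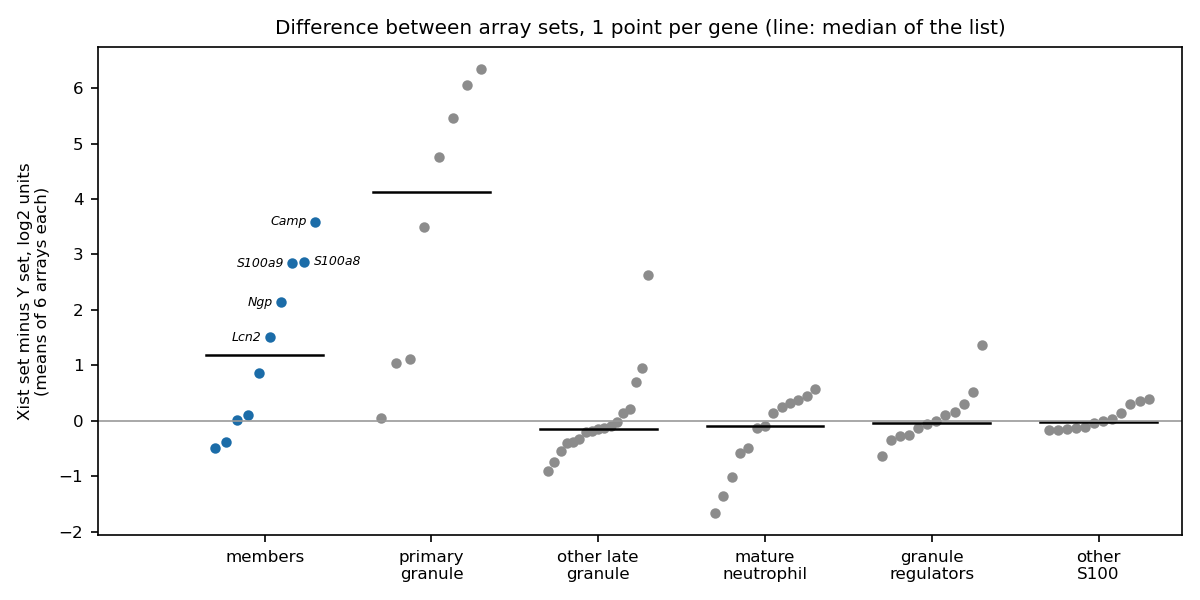
Difference between the array sets (mean of the 6 Xist-set arrays minus mean of the 6 Y-set arrays, log2 units) for every measured gene of 6 lists; each point is a gene and each line the median of its list. The members lie between -0.49 and 3.59 with a median of 1.18; the median is 4.12 for primary granule genes, -0.10 for mature neutrophil genes and -0.03 for regulators.

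Markers of other cells moved between the same sets. All 14 measured cell cycle genes were higher in the Xist set without overlap, against 7.45% of all genes. Their mean was 9.56 to 9.65 there against 4.95 to 6.10. Of the 6 measured neutrophil-defining genes, 1 parted the sets, downward (Csf3r), as did 6.59% of all genes. Their mean was 4.92 to 5.14 against 5.05 to 5.48 for the Y set, and Ly6g read 3.24 to 3.82 against 2.87 to 3.68. Erythroid and platelet markers ran opposite to the members that parted the sets. Of the measured genes 2 of 3 and 3 of 5 were lower without overlap (background 6.59%). The erythroid mean was 3.16 to 3.78 against 7.52 to 8.61 for the Y set, and the platelet mean 3.90 to 4.06 against 4.99 to 6.49. In the same order, the means of eosinophil and basophil markers (8 genes) were 3.67 to 4.02 against 3.10 to 3.25, those of B cell markers (4 genes) 4.30 to 4.64 against 4.59 to 5.42, and those of T and NK cell markers (8 genes) 3.95 to 4.24 against 3.93 to 4.39. Ly6C-high monocyte markers (9 genes) had means of 9.64 to 9.81 against 10.06 to 10.26, and Ly6C-low markers (8 genes) 6.96 to 7.39 against 8.17 to 9.02. Their part in the difference of the members was not tested.

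Between the genotypes, no member passed the test. In limma's fit of genotype alone 0 of 10 members passed at an adjusted p under 0.05, as did 0.0215% of all genes (5 of 23279), and 0 of 10 had an unadjusted p under 0.05 (background 3.07%). Blocking on the array set left 0 of 10 passing (background 0.0387%), and 1, S100a9, had an unadjusted p under 0.05 (background 5.28%). The difference was above 0 for 8 of 10 members, against 45% of all genes, and the median difference was 0.39 log2 units against -0.01 over all genes. Members share samples and neighbouring loci, so these counts are a description. The genotypes overlapped for all 10 members over the 12 arrays; 0.198% of all genes were without overlap. The mean of the neutrophil-defining markers was 4.97 to 5.48 on TRIM33 arrays and 4.92 to 5.11 on WT arrays, and 0 of these 6 genes passed; their part was not tested.

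S100a9 had the largest mean difference, 9.43 ± 1.75 on WT arrays against 10.23 ± 1.70 on TRIM33 arrays (SD, n = 6). That is 0.80 log2 units higher in TRIM33 arrays (SE 0.877 and limma adjusted p = 1 for genotype alone; SE 0.361 and adjusted p = 0.936 with the block). S100a8 followed with 0.73 (SE 0.896, or 0.388 with the block) and Lcn2 with 0.69 (SE 0.710, or 0.545). Retnlg differed by 0.44, Camp by 0.43 and Chil1 by 0.36, and Mmp8 and Ltf by 0.08 and 0.05. The 2 members below 0 were Ngp, at -0.22 (SE 0.654, or 0.260 with the block), and Mmp9, at -0.04. Adjusted p-values of the members were 0.936 to 0.994 with the block. For Camp the 95% confidence interval of the genotype difference ran from -1.78 to 2.64 without the block and from -0.03 to 0.88 with it, so a difference of up to 0.88 log2 units lies within the blocked interval. For Mmp9 it ran from -0.28 to 0.19 with the block, the narrowest of the members.

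**Figure D3:**
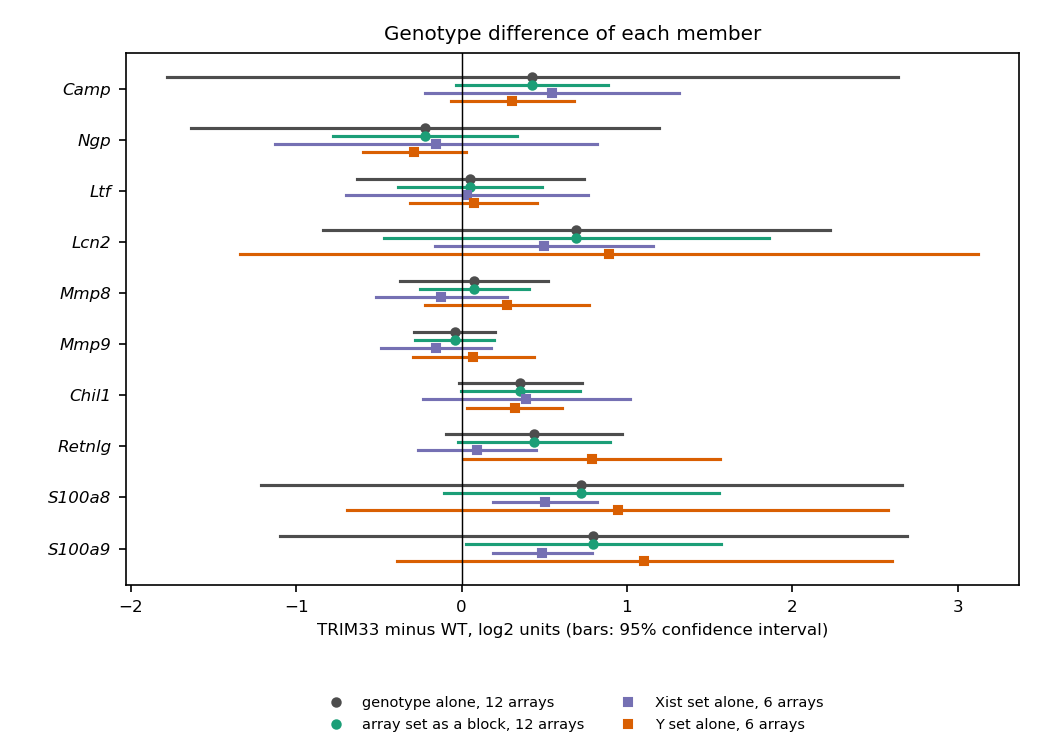
TRIM33 minus WT difference of each member in log2 units, with the 95% confidence interval of limma, for genotype alone and after blocking on the array set (12 arrays each) and within each set (6 arrays). Every interval of genotype alone spans 0; S100a8 and S100a9 lie at 0.51 and 0.49 in the Xist set, and their Y-set intervals are wide.

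Within the Xist set the alarmins kept the genotypes apart. S100a8 read 10.55, 10.56 and 10.72 on WT replicates 1, 2 and 3 and 11.03, 11.33 and 10.99 on TRIM33 replicates 4, 5 and 6. S100a9 read 10.92, 11.07 and 11.02 on the WT arrays and 11.49, 11.66 and 11.34 on the TRIM33 arrays. For both genes the lowest TRIM33 array exceeded the highest WT array; the group means differed by 0.51 (SE 0.141) and 0.49 (SE 0.134), 1.42-fold and 1.40-fold. They did not pass limma (adjusted p = 0.851 for both; unadjusted 0.00502 and 0.00464). In this set 0 of 10 members passed at the adjusted threshold (background 0.0129%), 2 of 10 had an unadjusted p under 0.05 (background 4.99%), and 2 of 10 were without overlap (background 10.3%). Of the other S100 genes, S100a4 (0.13), S100a5 (0.29), S100a6 (0.10) and S100a10 (0.10) also lay higher on these TRIM33 arrays without overlap. So did the primary granule genes Elane (0.21), Prtn3 (0.30) and Prss57 (0.48), and Wfdc21 (1.05), Cyba (0.24), Cebpe (0.38) and Tlr4 (0.40). Ceacam1 (-0.16), Bpi (-0.27) and Asprv1 (-0.12) were lower without overlap, and none of these genes passed limma. Single genes of other marker lists were higher on the TRIM33 arrays of this set too. Prg2, the eosinophil major basic protein, read 6.05, 5.32 and 4.81 on the WT arrays and 7.46, 7.53 and 7.03 on the TRIM33 arrays. The difference was 1.95 (SE 0.276, limma adjusted p = 0.126). The mean of the 8 eosinophil and basophil markers, Prg2 included, was 3.67 to 3.71 against 3.81 to 4.02. The rest of that list did not follow Prg2, and the median difference of the 8 genes was -0.05. Epx, Siglecf, Mcpt8, Fcer1a and Cpa3 lay below 0 (-0.05 to -0.12), and Ccr3 (0.03) and Gata2 (0.02) lay just above. Nkg7, a granule protein gene of cytotoxic lymphocytes, was higher by 0.46 without overlap (SE 0.137, limma adjusted p = 0.879). The mean of its list overlapped, at 3.96 to 4.24 against 3.95 to 4.18, and the median difference of the list was -0.01. The neutrophil-defining mean overlapped too, at 4.92 to 5.10 against 4.97 to 5.14. Their part in the difference of the alarmins was not tested.

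Other members of the Xist set overlapped between the genotypes. Camp read 7.03, 5.85 and 6.48 on WT replicates 1 to 3 and 7.13, 7.57 and 6.29 on TRIM33 replicates 4 to 6, a difference of 0.55 (SE 0.344). Lcn2 read 8.98, 7.81 and 8.22 against 9.25, 8.88 and 8.37, a difference of 0.50 (SE 0.296). Ngp spread most on the WT side, with 7.22, 5.27 and 7.16 against 6.28, 6.72 and 6.19, and differed by -0.16. WT replicate 2 held the lowest value of this set for Camp, Ngp, Ltf, Lcn2 and Retnlg. Of the 3 WT arrays, WT replicate 1 was highest for Camp, Ngp, Ltf, Lcn2, Mmp8, Mmp9 and Retnlg.

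In the Y set the differences of S100a8, S100a9 and Lcn2 rested largely on TRIM33 replicate 2, which is titled as a mix. S100a8 read 7.58, 7.55 and 7.42 on WT replicates 4, 5 and 6 and 6.88, 10.33 and 8.19 on TRIM33 replicates 1, 2 and 3. S100a9 read 7.63, 7.58 and 8.35 against 7.52, 10.57 and 8.78. TRIM33 replicate 1 was the lowest of the 6 arrays for both genes and TRIM33 replicate 2 the highest. Lcn2 read 6.36, 7.29 and 6.25 against 5.45, 10.03 and 7.10, with the same TRIM33 arrays at both ends. The genotype differences in this set were 0.94 (SE 0.712), 1.11 (SE 0.652) and 0.89 (SE 0.971) and did not pass limma (adjusted p = 0.997 for each). In this set 0 of 10 members passed (background 0.0344%). An unadjusted p under 0.05 was found for 2 of 10, Chil1 and Retnlg (background 4.57%), and 2 of 10 were without overlap, Chil1 and Ngp (background 10%). Chil1 read 3.07, 2.72 and 2.87 on WT replicates 4 to 6 and 3.25, 3.22 and 3.16 on TRIM33 replicates 1 to 3, a difference of 0.32. Ngp was lower on all 3 TRIM33 arrays, with 4.72, 4.33 and 4.38 against 4.23, 4.13 and 4.22, a difference of -0.29. Leaving out TRIM33 replicate 2 gave 0.31 for Chil1 and -0.25 for Ngp. All these Chil1 values were below the array medians and those of Ngp lay near them, where RMA compresses differences. Retnlg read 3.57, 3.38 and 3.16 against 3.88, 5.03 and 3.56, a difference of 0.79 that was 0.35 without TRIM33 replicate 2. Without TRIM33 replicate 2 the Y-set differences of S100a8, S100a9 and Lcn2 were 0.01, 0.30 and -0.36 (limma adjusted p of 0.999 to 1 for all members). Over the other 11 arrays, blocking on the set gave 0.29 for S100a8, 0.40 for S100a9 and 0.12 for Lcn2. Without TRIM33 replicate 1 instead, the lowest array for these 3 genes, the blocked differences were 1.05, 1.08 and 1.13. They were 0.20, 0.34 and 0.15 without the mixes and 1.77, 1.71 and 1.79 in the mixes alone, where the mix number was a block and each group holds 2 arrays; none of these values passed limma.

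TRIM33 replicate 2 read high for some members and not for others. It was the highest Y-set array for 8 of 10 members, against 16.5% of all genes, and lay at least 1 log2 unit above the median of the other 5 arrays for 4 of 10, against 0.395% (92 of 23279 genes). Those 4 were Lcn2, by 3.67, S100a9, by 2.94, S100a8, by 2.78, and Retnlg, by 1.47. Mmp8 lay 0.75 above. Camp lay 0.46 above, at 3.53, far from the lowest Xist-set value of 5.85. Ngp was the lowest of the 6 arrays, at 4.13. The array thus read near the Xist set for S100a8 and S100a9, above every array of that set for Lcn2 and Retnlg, and with the Y set for Camp and Ngp. It also exceeded the Xist set for Mmp8, as did 4 other Y-set arrays, and narrowly for Mmp9, at 4.19 against at most 4.13.

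**Figure D4:**
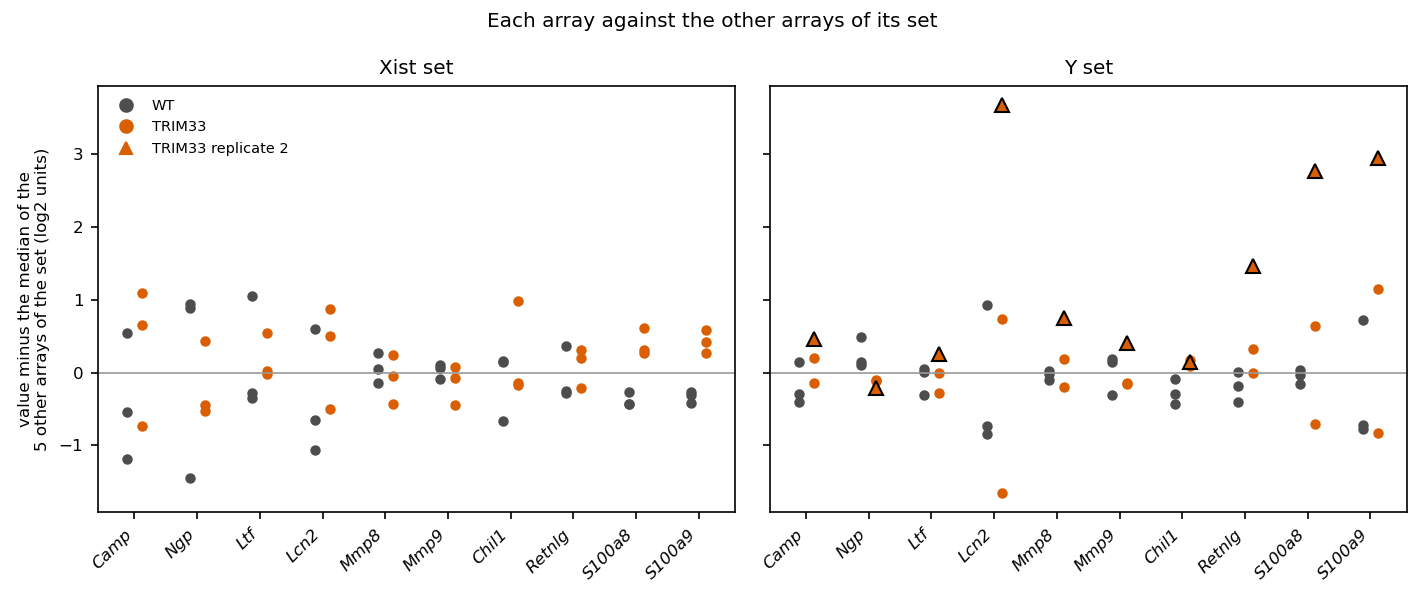
Value of each array minus the median of the 5 other arrays of its set, in log2 units, for each member in the Xist set (left) and the Y set (right); each point is 1 array and the outlined triangle is TRIM33 replicate 2. In the Y set the triangle lies 3.67 above for Lcn2, 2.94 for S100a9 and 2.78 for S100a8, but 0.46 for Camp and -0.21 for Ngp.

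Other genes moved on the same array. Wfdc21, a small secreted protein with a whey acidic protein domain, read 8.32 there and 3.66 to 5.07 on the other Y-set arrays, Fcnb 7.13 against 5.49 to 5.95, and Elane 5.56 against 3.81 to 4.63. Mpo, at 5.03, did not follow: the other arrays read 4.74 to 5.15. At least 1 log2 unit above the median of the other 5 arrays were 6 of 14 cell cycle genes, 3 of 8 primary granule genes and 2 of 17 other late granule genes. So were 1 of 13 mature neutrophil genes, 1 of 5 platelet genes, 1 of 9 Ly6C-high monocyte markers and 0 of 6 neutrophil-defining genes (background 0.395%). The mean of the Ly6C-low markers was the lowest of the Y set, at 8.17 against 8.66 to 9.02. The cell cycle mean was 6.10 against 4.95 to 5.37, and the neutrophil-defining mean was 5.28 against 5.05 to 5.48. Ly6g read 3.09 there, within the 2.87 to 3.68 of the other arrays. Their part in the values of the members was not tested.

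Whether the genotype difference depended on the array set was tested with an interaction. No member passed (0 of 10, background 0.0043%; 0 of 10 at an unadjusted p under 0.05, background 4.21%). Retnlg had the smallest p, with a genotype difference of 0.09 in the Xist set and 0.79 in the Y set (interaction -0.69, 95% confidence interval -1.56 to 0.18, limma adjusted p = 0.996). The interval for S100a8 ran from -2.16 to 1.28 and that for Camp from -0.71 to 1.19, so differences of more than 1 log2 unit between the sets lie within them.

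Of the genes on the related lists named next, 1 passed between genotypes, in the Y set only (background 0.0344%). Over all 12 arrays, with or without the block, limma called 0 of 17 other late granule genes, 0 of 8 primary granule genes, 0 of 13 mature neutrophil genes, 0 of 12 regulators, 0 of 17 receptors, inhibitors and partners, and 0 of 12 other S100 genes. At an unadjusted p under 0.05 with the block there were 1, 0, 1, 0, 1 and 1. Their median differences were, in the same order, 0.07, 0.22, 0.09, -0.09, -0.04 and 0.08. Of the regulators 10 of 12 lay below 0, and Cebpe, at 0.30 (SE 0.153 with the block), was 1 of the 2 above. Fcnb differed by 0.46 (SE 0.208), Wfdc21 by 1.21 (SE 0.574), Elane by 0.42 (SE 0.203) and Ctsg by 0.39 (SE 0.191), with limma adjusted p of 0.936 to 0.937 with the block. Stfa2l1, a stefin of neutrophils on the mature neutrophil list, differed by 1.97 over all 12 arrays (SE 0.476, adjusted p = 0.401 with the block). In the Y set it read 3.24, 2.48 and 2.78 on WT replicates 4 to 6 and 5.88, 6.87 and 6.70 on TRIM33 replicates 1 to 3, a difference of 3.65 (SE 0.284) that passed limma (adjusted p = 0.00624). In the Xist set it differed by 0.30 (adjusted p = 0.962), and the interaction passed (-3.35, SE 0.371, adjusted p = 0.0116). With the block, S100a1 differed by 0.27 (SE 0.0802, adjusted p = 0.645) and Trf, transferrin, by -0.30 (SE 0.111, adjusted p = 0.841). Mrgpra2a (0.32), S100a16 (0.23), P2rx7 (-0.13) and Cebpg (-0.16) did not pass either. Among cell markers with the smallest p of their lists, Prg2 differed by 1.11, Epx by -0.12, Nkg7 by 0.30, Ncr1 by -0.18, Csf1r by -0.15, F13a1 by -0.12, Cd300e by -0.29, Cx3cr1 by -0.29, Ccna2 by 0.35, Ccnb2 by 0.56, Il1r2 by 0.47 and Cxcr2 by 0.15 over the 12 arrays. For B cells, erythroid cells and platelets they were Ms4a1 (-0.24), Pax5 (-0.09), Klf1 (-0.03), Hbb-bs (0.04), Gp1bb (0.10) and Pf4 (0.14). None of these passed (limma adjusted p with the block 0.471 or more).

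Of 17 receptors, inhibitors and partners of the member proteins, 1 was higher and 5 were lower in the Xist set without overlap, against 7.45% and 6.59% of all genes. Tfrc, the transferrin receptor, was the 1 that was higher in the Xist set without overlap, at 6.28 ± 0.200 against 4.54 ± 0.232 (SD, n = 6). The 5 that were lower included the scavenger receptor Cd36 (-2.28), the MMP inhibitor Timp2 (-1.60), Lrp1, an uptake receptor for lactoferrin and MMP9 (-1.53), and Trf (-1.04). Tlr4, a receptor for calprotectin, differed by -0.56 with overlap.

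Genes whose profile was most like that of the members were found over the 12 arrays. For the mean of the 2 alarmins they were Ccnb2, a mitotic cyclin, Fcnb, Phpt1, Prtn3, the primary granule protease proteinase 3, and 9430069I07Rik (Pearson's r 0.958 to 0.981). After subtraction of each set's mean they were Ccnb2, Pclaf, a replication factor, Elane, Wfdc21 and Zfand1 (r 0.928 to 0.965), values to which TRIM33 replicate 2 contributes. For the 6 specific granule members they were Ppp5c, Slc16a1, Eml2, Cep76 and E2f1 (r 0.945 to 0.961), and after subtraction Dgka, Ybx1, Gm3219, Olfr1366 and Snora41 (r 0.873 to 0.897). For Mmp9 and Retnlg they were Zscan4e, Esp15, Pde4c, Dkk2 and Olfr424 (r 0.870 to 0.874), and after subtraction Snhg1, Ptch1, F10, Snora41 and Esp15 (r 0.882 to 0.926). The mean of Mmp9 and Retnlg was 4.61 on TRIM33 replicate 2 and 3.40 to 3.88 on the other 11 arrays. The 12 arrays fall into 2 sets with 1 array apart, so r is given only as a measure of likeness.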

How the data were processed

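RNA of 12 samples was measured on single-colour arrays; per the labels' protocols, 900 pg of total RNA was amplified with the NuGEN Ovation Pico V2 kit. The authors deposited RMA values on the log2 scale, with RMA and Partek named in the submitters' processing notes. Their versions, the chip definition and the build are not given in the sources used. RMA compresses differences between dim genes. Arrays have no counting depth; their number limits the precision.

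Groups follow the genotype labels, and replicate numbers only name arrays. Of 24479 features, 23281 carry 1 symbol in the platform annotation and 1198 none; the brighter feature was kept for a repeated symbol, leaving 23279 genes. Genotype was tested with limma 3.58.1 (lmFit, eBayes; R 4.3.3), Benjamini-Hochberg adjusted over all genes, threshold 0.05; 95% confidence intervals are from the same fit. Array sets come from hierarchical clustering (average linkage, 1 minus r as distance) of 24326 features outside the lists. The fits were tested on simulated data. Figures used matplotlib 3.10.9 (Python 3.11.15). RefSeq promoter sequences were matched by Entrez number.

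The named genes were the members, Trim33, list genes past the threshold or with the 2 smallest p with the block, and the 5 genes most like each member group; other list genes were picked with their values in view. The members and lists were chosen with earlier results of these data known. Alternatives covered the array set as a block, either set alone, the mixes, normalization, filters, variance models, array weights and each array left out.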

Additional observations from a re-analysis of the deposited data

Results flagged for a closer look

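Dixon's criterion for 6 arrays marked 3 of the 20 combinations of member and genotype. Each group holds arrays of both sets, so the usual chance rate of about 1 group in 20 does not apply. Retnlg on TRIM33 replicate 2 read 5.03, and the next TRIM33 array read 3.88. Chil1 on TRIM33 replicate 5 read 3.92, and the next TRIM33 array read 3.25. Ltf on WT replicate 1 read 5.22, and the next WT array read 3.91. S100a8, S100a9 and Lcn2 on TRIM33 replicate 2 were not marked; the TRIM33 group also holds Xist-set arrays with high values.

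Stfa2l1, a mature neutrophil gene, differed between genotypes by 3.65 in the Y set and by 0.30 in the Xist set; the interaction of genotype and array set was -3.35 (SE 0.371, limma adjusted p = 0.0116). The array sets were read from the data.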

How the results depend on the processing

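Over 38 alternatives, 0 of 376 member differences passed the threshold, so the count of members called stayed 0 in each. The interaction was refitted under 3 other settings and with each of 12 arrays left out, with 0 members called in each. The median member difference was 0.39 in the planned fit and 0.15 to 0.56 under alternatives other than leaving out an array. It was 0.18 to 0.45 with an array left out, 0.16 to 0.47 with the block as well, and 0.02 in the Y set without TRIM33 replicate 2, an alternative chosen after seeing the data. The sign turned in 23 of the 376, all for differences that were not called, and the cause was not tested. Mmp8 was -0.12 in the Xist set alone and -0.14 without the mixes; Ltf was -0.058 without the mixes; Mmp9 was 0.071 in the Y set alone and 0.18 in the mixes with the mix number as a replicate block. In the Y set without TRIM33 replicate 2, Ltf was -0.058 and Lcn2 -0.36. With an array left out, Camp ranged from -0.060 to 0.89, Ngp from -0.51 to 0.12, Ltf from -0.10 to 0.32, Mmp8 from -0.091 to 0.21 and Mmp9 from -0.11 to 0.013. With the block as well, Ltf ranged from -0.052 to 0.25 (-0.0081 without TRIM33 replicate 2, -0.024 without TRIM33 replicate 5 and -0.039 without WT replicate 3), Mmp8 from -0.055 to 0.17 and Mmp9 from -0.12 to 0.031. The largest swings were those of S100a8 (0.20 to 1.77 over the settings without an array left out), S100a9 (0.34 to 1.71) and Lcn2 (0.15 to 1.79). With the block and an array left out they ranged from 0.29 to 1.05, 0.40 to 1.08 and 0.12 to 1.13. The mix number has 2 pairs, which share only a number (correlation of deviations 0.118); that replicate block called 10 of 23279 genes and 0 members. The filter on features above the median kept 6 of 10 members. On average Chil1, Ltf, Mmp9 and Retnlg lie near or below the array medians, where RMA values are least able to show a difference.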
